A study of Mus musculus with 84 samples.

Results

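Astrocytes with high expression of trunk Hox genes were compared with astrocytes that expressed few of them, in 6 of the 84 libraries of the series. The first group were the 3 libraries labelled as hindbrain ACSA+GLAST- and the second the 3 libraries labelled as forebrain ACSA+GLAST+. In the authors' supplementary table of normalized counts, the columns that match these libraries are named spinal cord GLASTneg and hindbrain GLASTneg, respectively, so the labels and that table disagree on both groups. The groups are called Hox-high and Hox-low below, and every difference is Hox-high minus Hox-low.

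All 6 libraries were made from wild type mice of the FVB/N strain labelled as control, with no treatment, and the age of the mice is not given in the sources used here. Cells were dissociated with trypsin and sorted as live CD11B-/CD45- cells that bound an antibody to ACSA-2 (encoded by Atp1b2, a subunit of the sodium-potassium pump), and were then split on surface GLAST, the glutamate transporter encoded by Slc1a3. A library could hold RNA from a pool of up to 2 mice, and only the 3′ end of each transcript was sequenced. As a comparison that shares no library with this one, 5 spinal cord libraries (titled C_SC_A) and 5 hindbrain libraries (C_HB_A) of unimmunized C57BL/6J controls were used. In the study, spinal cord meant the cervical and thoracic parts, and hindbrain meant cerebellum and brain stem. The labels do not spell out A, and a further 5 hindbrain controls titled AG had more Slc1a3 (7238 ± 1543 CPM, SD, n = 5) than C_HB_A (1358 ± 249.9). The sheet numbers in the labels run from 60 to 83 in C_SC_A and from 32 to 51 in C_HB_A, so that a run, if the number marks one, and the region cannot be told apart. Nothing in the labels says that libraries of a group came from separate animals, and p-values measure only the spread between these libraries.

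Hox genes encode transcription factors that give embryonic cells their position along the body axis. They lie in 4 clusters, and genes at one end of a cluster (low paralogue numbers) are used from the hindbrain backwards, whereas those at the other end are used only in the trunk and tail. Retinoic acid is a signal that acts on the Hox clusters, and enzymes of the Cyp26 family degrade it. The markers Hoxc6, Hoxc8 and Hoxc9 belong to the trunk part of a cluster, and they served here as markers of cells from the spinal cord. Genes such as En1 (midbrain and anterior hindbrain), Otx2 (forebrain and midbrain), and Dmrta2 (telencephalon) are used further forward.

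The Hox-high libraries held 954533, 691074 and 416768 counts and the Hox-low libraries 907710, 898887 and 946986. Expression is given as CPM, the count of a gene scaled to the library total after TMM adjustment in edgeR, with libraries in the order of their replicate numbers. The detection floor was set at 3 counts in a library, which, divided by the total, is 3.14 to 7.2 CPM in the Hox-high and 3.17 to 3.34 CPM in the Hox-low libraries. These floors, like the intervals below, cover counting error only, since no molecular identifiers tell copies of a molecule apart. Absence of overlap between groups is given as a description. With 3 against 3 libraries it arises by chance with a probability of 0.1 for a gene without a difference. The share of all genes without overlap was not counted. For a called gene, absence of overlap comes from the same values as the call and is no further support for it. Libraries differed within both groups in Ddx3y, a Y-linked gene, which was at 203, 0 and 2.33 CPM in Hox-high and 167, 127 and 11.7 CPM in Hox-low.

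The forebrain label of the Hox-low group was checked against Dmrta2, a gene of the telencephalon. It was at 5.65, 0 and 0 CPM in the Hox-low libraries, compared with a mean of 102 ± 3.45 (SD, n = 3) in the libraries labelled forebrain ACSA+GLAST- and 129.8 ± 10.5 in those labelled hindbrain ACSA+GLAST+. This forebrain gene was thus at or near the detection floor in libraries labelled as forebrain. The GLAST+ label was also not borne out by the transcript, because Slc1a3 in the Hox-low libraries (1987, 1733 and 2087 CPM) was below the mean of the libraries labelled forebrain ACSA+GLAST- (4649.7 ± 381). En1 (37.3, 28.8 and 19.2 CPM) and the anterior Hox genes were detected in Hox-low. No spinal cord group of FVB/N mice with trunk Hox expression was found under its own label: the libraries labelled spinal cord ACSA+GLAST- held 0 ± 0 CPM of Hoxc8.

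**Figure D1:**
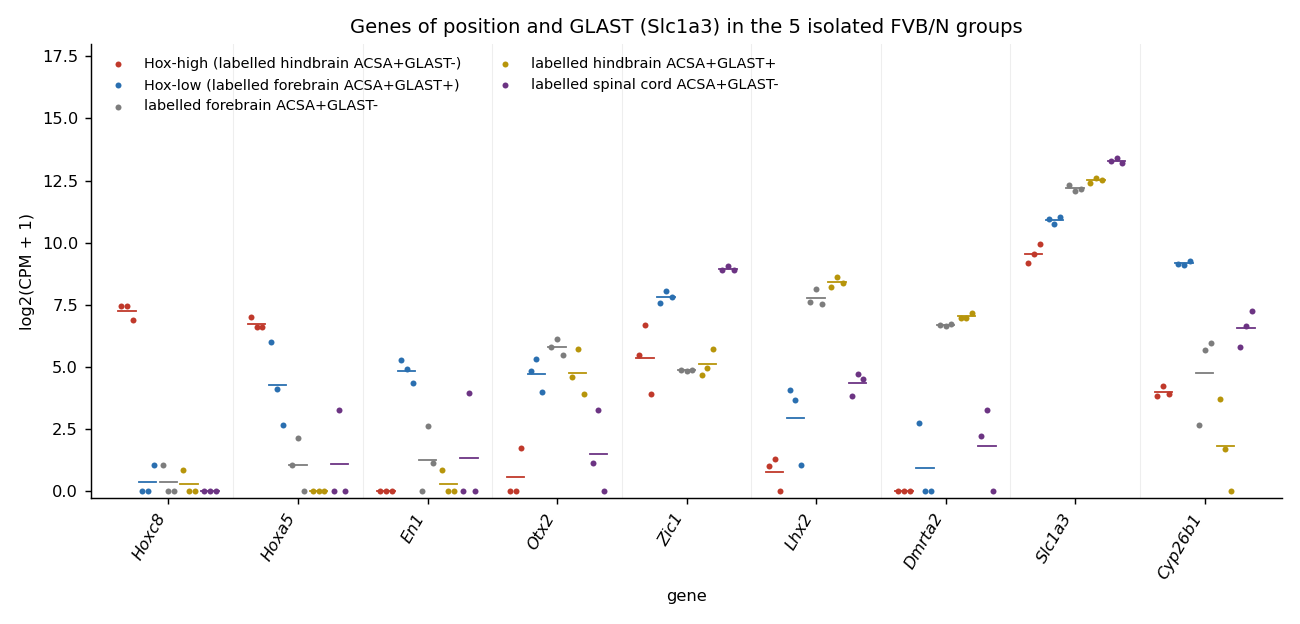
Genes of position along the axis, Slc1a3 and Cyp26b1 in the 15 isolated FVB/N libraries, as log2(CPM + 1) with a point per library and a line at the mean of each group of 3. Hoxc8 stood at 116 to 175 CPM in the Hox-high group and at no more than 1.07 CPM in the Hox-low group, and Dmrta2 and Lhx2 were highest in the groups labelled forebrain ACSA+GLAST- and hindbrain ACSA+GLAST+.

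The 3 trunk Hox markers separated the groups without overlap. Hoxc6 (ENSMUSG00000001661, chromosome 15, 102998257 to 103011881, plus strand, GRCm38) was at 142, 81.6 and 95.5 CPM in Hox-high and 0, 3.45 and 1.07 CPM in Hox-low. Hoxc8 (ENSMUSG00000001657, chromosome 15, 102990607 to 102994111, plus strand) was at 172, 175 and 116 CPM in Hox-high and 0, 0 and 1.07 CPM in Hox-low, and Hoxc9 (ENSMUSG00000036139, chromosome 15, 102976439 to 102985099, plus strand) was at 75.6, 94.7 and 90.8 CPM in Hox-high and 0, 0 and 0 CPM in Hox-low. Every Hox-high library lay above every Hox-low library for the 3 genes, and Hoxc9 had no count in Hox-low. The ratio of Hoxc6 was 75.8 (95% counting interval 29.2 to 281), that of Hoxc8 was 434 (95% counting interval 77.4 to 17205), and Hoxc9 was at least 26-fold higher against a floor of 3 counts per library. In edgeR's quasi-likelihood test (two-sided, Benjamini-Hochberg adjustment over 14957 genes) the adjusted p was 8.3e-06 for Hoxc6, 4.6e-10 for Hoxc8 and 3.4e-06 for Hoxc9. These 3 genes are the markers by which the groups were chosen and named. Their difference follows from that choice, so these values describe the groups and are no independent test. Fitted log2 fold changes were 6.03, 8.26 and 9.33, which with so few counts in Hox-low depend on the prior count. In GENCODE M21 no exon of these 3 genes overlaps another gene.

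Of the 24 listed Hox genes of paralogue groups 6 to 13, 15 had enough counts to be tested, 8 were called higher in Hox-high and 0 lower by edgeR (0 lower also by DESeq2 and at an unadjusted p under 0.05). Calls required an adjusted p below 0.05 together with a log2 fold change beyond 1 in either direction, and 0.421% of the 14957 genes tested were called higher. The median log2 fold change of the 15 genes was 6.26, or 4.30 with the 8 genes without counts in Hox-low set to their bound, compared with -0.07 over all genes tested. Summed over the list, expression was 729.8, 774 and 719.6 CPM in Hox-high and 13.6, 6.91 and 9.6 CPM in Hox-low. DESeq2 called 6 of the 15 genes, and between 3 and 6 were called when 1 of the 6 libraries was left out. Genes without counts in Hox-low passed the filter on total counts through libraries in which they were high, so that the count and the median describe the tested genes and not the whole list. The list also holds Hoxc6, Hoxc8 and Hoxc9, whose difference follows from the choice of groups.

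Beside the Hoxc genes, Hoxa7 (ENSMUSG00000038236, chromosome 6, 52214491 to 52221854, minus strand) was at 64.4, 77.2 and 65.2 CPM in Hox-high and 9.04, 0 and 1.07 CPM in Hox-low (log2 fold change 4.30, SE 1.06, adjusted p = 0.013 from edgeR). Hoxb8 (ENSMUSG00000056648, chromosome 11, 96281905 to 96285315, plus strand) was at 65.4, 87.4 and 60.5 CPM in Hox-high and 1.13, 1.15 and 5.33 CPM in Hox-low (log2 fold change 4.72, SE 1.05, adjusted p = 0.0037). Hoxb7 was at 31.7, 32 and 18.6 CPM in Hox-high and at 0 in Hox-low, at least 8.2-fold higher (adjusted p = 0.039, edgeR). None of these 3 genes overlapped between groups, which was a condition of the rule for largest differences that picked them and is no further support. With 1 library left out the call of Hoxa7 was lost in 5 of 6 cases (up to adjusted p = 0.17) and that of Hoxb7 in all 6 (up to 0.24). Hoxb8 lost its call without Hox-high replicate 2 (adjusted p = 0.076) and without Hox-low replicate 2 (0.058), and DESeq2 called Hoxa7 and Hoxb8 but not Hoxb7. Exons of Hoxa7 overlap the antisense gene Hoxaas3, and whether counting used the strand is not given in the sources used here.

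Hox genes of the groups 10 and 11, used in the most posterior trunk, were detected in Hox-high at uneven levels. Hoxa10 was at 26.6, 8.74 and 72.2 CPM and Hoxc11 at 15.3, 24.8 and 53.6 CPM, and both were at 0 in all Hox-low libraries. They were called at adjusted p = 0.017 and 0.033 (edgeR), at least 10.7-fold and 9.33-fold higher, but DESeq2 called neither, and with 1 library left out the call was lost in 5 of 6 cases for Hoxa10 (up to 0.27) and in all 6 for Hoxc11 (up to 0.23). For both genes the third Hox-high library was highest. Hoxc10 (8.18, 26.2 and 39.6 CPM, 0 in Hox-low) had an adjusted p of 0.073, and its exons overlap those of Hoxc5 on the same strand. Hoxc13 was at 0, 16 and 18.6 CPM in Hox-high and was not called (adjusted p = 0.35). Hoxa9 (38.8, 17.5 and 41.9 against 0, 0 and 1.07 CPM, adjusted p = 0.056) and Hoxd8 (36.8, 72.8 and 11.6 against 3.39, 0 and 0 CPM, adjusted p = 0.055) missed the threshold although their groups did not overlap.

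The promoters of Hoxa7 and Hoxb8, the called Hox genes with TTTATG in the RefSeq promoter table for GRCm38.p6, are shown beside that of Cyp26b1, described below, because Hox genes and Cyp26b1 differed in opposite directions. Of the other called Hox genes, Hoxa10 has 1 match of TATAAA there and is not shown. Hoxb7, Hoxc6, Hoxc8, Hoxc9 and Hoxc11 had no promoter entry that could be searched, so nothing is known here of these runs in them. The runs were TTTATG, a form of the caudal-type (Cdx) consensus, and TATAAA, the TATA box, on both strands. Each window spans 250 bases before to 50 after the start that the RefSeq table uses, written 5′ to 3′ on the strand of the gene. These starts need not be those of GENCODE: the window of Hoxa7 lies inside the GENCODE gene span given above, downstream of its 5′ end, and that of Cyp26b1 reaches further than 50 bases into the GENCODE span of that gene. Capitals mark TTTATG or its reverse complement CATAAA, and TATAAA or its reverse complement TTTATA, and no matches of the different runs overlap in these windows. The window of Hoxa7 (chr6:52218524-52218823, minus strand) holds 2 matches of TTTATG and 0 of TATAAA, that of Hoxb8 (chr11:96281655-96281954, plus strand) 2 and 2, and that of Cyp26b1 (chr6:84593761-84594060, minus strand) 0 and 1.
Hoxa7: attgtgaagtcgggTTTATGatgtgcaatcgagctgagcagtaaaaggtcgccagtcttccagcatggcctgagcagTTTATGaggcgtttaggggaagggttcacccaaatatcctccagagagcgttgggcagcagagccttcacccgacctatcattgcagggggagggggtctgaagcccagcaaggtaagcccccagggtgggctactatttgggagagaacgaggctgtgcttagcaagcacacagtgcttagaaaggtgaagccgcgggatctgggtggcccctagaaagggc
Hoxb8: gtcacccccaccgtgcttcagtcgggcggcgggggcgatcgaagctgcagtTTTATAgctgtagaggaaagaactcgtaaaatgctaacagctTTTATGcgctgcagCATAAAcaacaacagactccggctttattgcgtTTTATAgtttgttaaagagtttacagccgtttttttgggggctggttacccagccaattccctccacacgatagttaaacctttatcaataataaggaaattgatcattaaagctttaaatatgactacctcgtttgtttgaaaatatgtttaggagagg
Cyp26b1: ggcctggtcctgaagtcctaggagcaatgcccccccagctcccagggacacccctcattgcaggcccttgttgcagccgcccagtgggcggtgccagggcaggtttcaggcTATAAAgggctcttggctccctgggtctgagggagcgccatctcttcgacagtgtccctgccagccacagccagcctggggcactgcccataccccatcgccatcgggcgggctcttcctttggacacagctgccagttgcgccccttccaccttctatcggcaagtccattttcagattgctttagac
Of all 32851 promoters in the table, 11.9% hold TTTATG and 13.6% hold TATAAA. The first of these was found in 3 of the 15 promoters of Hox genes of the groups 6 to 13 (13 genes with an entry), in 4 of 56 promoters of genes called higher and in 10 of 159 promoters of genes called lower. Such a match is a run of letters in a window and not a measured binding site.

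Anterior Hox genes differed less. Hoxa5, used from the posterior hindbrain into the neck, was at 127, 96.1 and 95.5 CPM in Hox-high and 62.2, 16.1 and 5.33 CPM in Hox-low. Hoxb4 was at 63.4, 36.4 and 76.8 CPM in Hox-high and 29.4, 9.21 and 5.33 CPM in Hox-low, and Hoxd4 at 74.6, 119 and 62.9 CPM in Hox-high and 29.4, 23 and 13.9 CPM in Hox-low. The 3 genes were thus detected in both groups and, within Hox-low, were highest in the first library. They did not overlap between groups, which for a gene without a difference has a chance probability of 0.1. None was called: the adjusted p from edgeR was 0.21 for Hoxa5, 0.46 for Hoxb4 and 0.24 for Hoxd4. Of the 15 listed genes of the groups 1 to 5, 8 were tested and 0 were called by edgeR or DESeq2, and 4 had an unadjusted p under 0.05 and a log2 fold change above 1. Hoxb3 was the exception in direction, at 1.02, 0 and 0 CPM in Hox-high and 7.91, 6.91 and 11.7 CPM in Hox-low (adjusted p = 0.57, edgeR). Summed over the list, expression was 357, 294 and 340.0 CPM in Hox-high and 155, 73.7 and 57.6 CPM in Hox-low.

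The noncoding gene Hoxd3os1 (ENSMUSG00000052371, chromosome 2, 74703248 to 74716130, minus strand), which runs antisense to Hoxd3 and Hoxd4, was at 51.1, 64.1 and 74.5 CPM in Hox-high and at 0 in every Hox-low library. It was at least 18.9-fold higher and was called (adjusted p = 0.00019, edgeR), also with any 1 of the 6 libraries left out. Its exons overlap those of both genes on the opposite strand, so that reads of the partners cannot be told apart without strand.

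**Figure D2:**
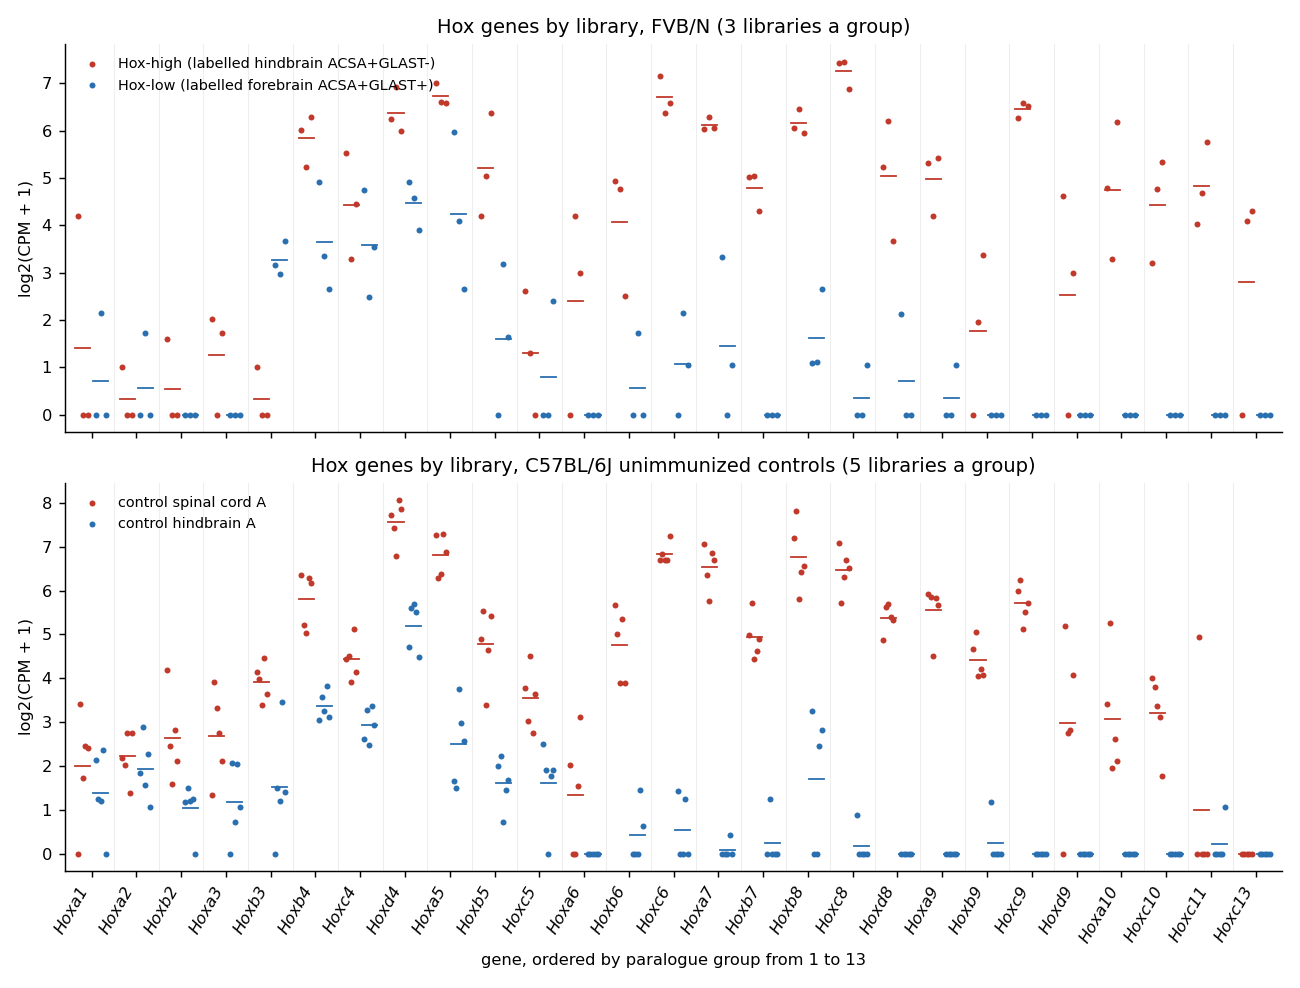
The 27 Hox genes with more than 9 counts in at least 1 of these libraries, ordered by paralogue group, as log2(CPM + 1) with a point per library and a line at the group mean, in FVB/N (upper panel) and in C57BL/6J controls (lower panel). From group 6 on, no Hox-low library is above 9.04 CPM (Hoxa7) and no control hindbrain A library is above 8.50 CPM (Hoxb8), whereas Hoxa5, Hoxb4 and Hoxd4 are above 0 in every library.

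Hoxc6, Hoxc8 and Hoxc9 also separated spinal cord from hindbrain in the C57BL/6J controls, which share no library with the FVB/N comparison. Hoxc8 was at 134, 51.9, 78.9, 103 and 90.6 CPM in the 5 spinal cord libraries and at 0.85, 0, 0, 0 and 0 CPM in the 5 hindbrain libraries. Hoxc9 was at 33.8 to 74.8 CPM in spinal cord and had no count in hindbrain, and Hoxc6 was at 103 to 151 and 0 to 1.7 CPM. No spinal cord library overlapped a hindbrain library for these genes. In the C57BL/6J fit 6.18% of 18113 genes were called, 3.80% higher in spinal cord, and 13 of the 16 tested Hox genes of the groups 6 to 13 were among them, with adjusted p from 3e-12 (Hoxc8) to 0.0015 (Hoxd9) in edgeR's quasi-likelihood test. Of the anterior genes, Hoxa5, Hoxb4, Hoxb5 and Hoxd4 were called higher as well, with log2 fold changes of 4.41, 2.62, 3.68 and 2.38. Summed expression of the groups 6 to 13 was 464 to 883 CPM in spinal cord and 0 to 15.7 CPM in hindbrain. The sums of Hox-high and Hox-low lay inside these ranges. At the posterior end, Hoxc13 had no count in these 10 control libraries, and Hoxc11 was at 0, 29.7, 0, 0 and 0 CPM in spinal cord and 0, 0, 0, 0 and 1.1 CPM in hindbrain (adjusted p = 0.15).

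In all, 204 of 14957 genes (1.36%) were called in FVB/N, of which 63 were higher (0.421%) and 141 were lower (0.943%) in Hox-high. All 63 genes that were higher were tested in C57BL/6J, and 51 of them were called higher in spinal cord and 0 lower, whereas 3.80% of all genes were called higher there. Of the 141 genes that were lower, 131 were tested in C57BL/6J, 49 (37.4%) were called lower in spinal cord, compared with 2.37% of all genes, and 5 were called higher. As shares of the C57BL/6J calls, these are 7.40% of 689 genes called higher and 11.4% of 430 called lower. The 63 higher genes came down to 13 that were called with each of the 6 libraries left out in turn, and all 13 were called in C57BL/6J. The 141 lower genes came down to 30, of which 15 were called lower and 1 higher in C57BL/6J. Without Hox-low replicate 3, 24 genes were called higher and 43 lower, the smallest of these counts, and the total of 204 fell to between 67 and 130 without any library other than Hox-low replicate 1 (175 without that one).

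**Figure D3:**
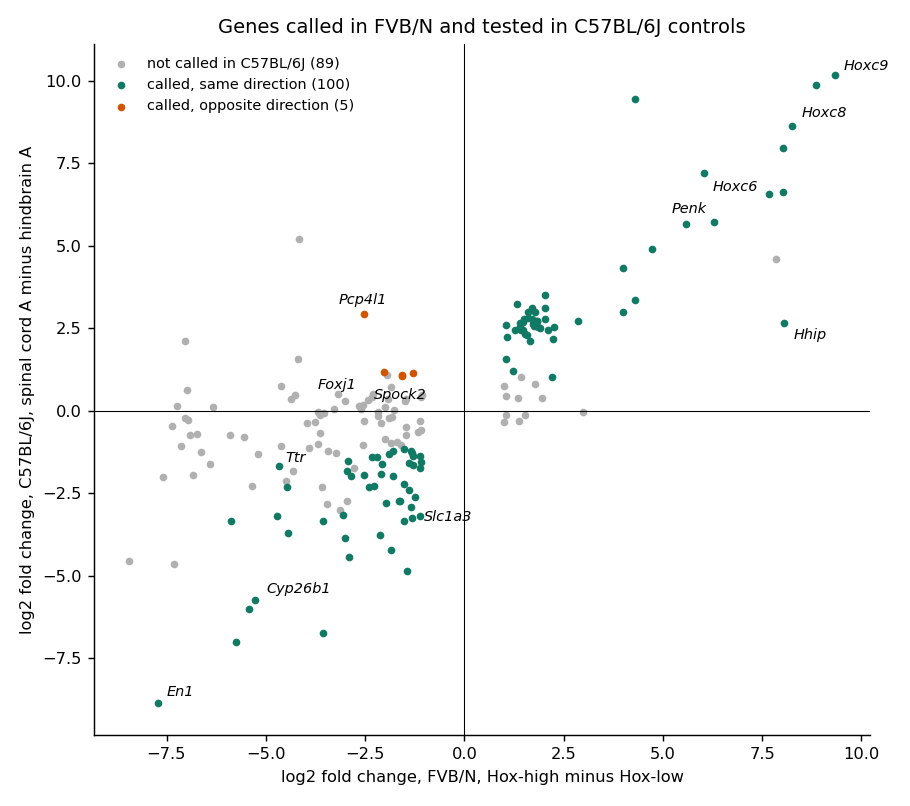
Log2 fold change in FVB/N (x axis, Hox-high minus Hox-low) against that in C57BL/6J controls (y axis, spinal cord A minus hindbrain A) for the 194 genes called in FVB/N and tested in both, by the call in C57BL/6J. Genes higher in Hox-high are mostly above 0 on the y axis (58 of 63), and those lower are above and below it (99 of 131 below).

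Several transcription factors of more anterior position were lower in Hox-high. En1 (ENSMUSG00000058665, chromosome 1, 120602418 to 120607992, plus strand), which sets up the boundary of midbrain and hindbrain, had no count in Hox-high and was at 37.3, 28.8 and 19.2 CPM in Hox-low. Otx2 (ENSMUSG00000021848, chromosome 14, 48657677 to 48673819, minus strand), a factor of forebrain and midbrain, was at 0, 0 and 2.33 CPM in Hox-high and 27.1, 39.1 and 14.9 CPM in Hox-low, and its relative Otx1 was at 0, 0 and 0 CPM in Hox-high and 3.39, 15 and 3.2 CPM in Hox-low. None of the 3 overlapped between groups, which for En1 was a condition of the rule for largest differences that picked it. En1 was at least 5.91-fold lower (adjusted p = 0.029, edgeR, between 0.093 and 0.17 with 1 library left out, so that its call needed all 6), and Otx2 was lower by a ratio of 56 (95% counting interval 9.74 to 2243) (adjusted p = 0.0014). Zic1 (ENSMUSG00000032368, chromosome 9, 91358058 to 91365810, minus strand), a zinc finger factor of the dorsal neural tube and the cerebellum, was at 42.9, 101 and 14 CPM in Hox-high and 189.9, 266 and 223 CPM in Hox-low (log2 fold change -2.07, SE 0.34, adjusted p = 2.1e-05). Otx2 and Zic1 were called with any 1 of the 6 libraries left out.

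Of 22 listed factors of midbrain and hindbrain, 15 were tested and 5 were called lower (among them En1, Zic1 and Zic4) and 0 higher, with 0.943% of all genes called lower. By DESeq2 4 were lower and 0 higher, and 0 were higher at an unadjusted p under 0.05 with a log2 fold change above 1. The median log2 fold change was -1.96, or -1.88 with genes without counts in 1 group at their bound, and 2 to 4 were called with 1 library left out (2 without Hox-high replicates 1 or 2 or Hox-low replicates 2 or 3, and 3 without Hox-low replicate 1). Zic4 (0, 0 and 11.6 CPM in Hox-high and 11.3, 33.4 and 57.6 CPM in Hox-low) overlapped between groups because of the third Hox-high library, and its call was lost in 4 of 6 cases with 1 library left out (up to adjusted p = 0.31). Of 15 listed forebrain factors, 13 were tested and Otx1, Otx2 and Lhx2 were called lower, of which DESeq2 called Otx2. With 1 library left out the call was lost in 4 of 6 cases for Otx1 (up to adjusted p = 0.3) and in 5 of 6 for Lhx2 (up to 0.19). Lhx2 was at 1.02, 1.46 and 0 CPM in Hox-high and 15.8, 11.5 and 1.07 CPM in Hox-low, overlapped between groups through the third Hox-low library, and was at 220.1 ± 54.1 CPM (SD, n = 3) in the libraries labelled forebrain ACSA+GLAST-. In C57BL/6J, En1 (no count in spinal cord, 14.9 to 35.7 CPM in hindbrain, log2 fold change -8.86, SE 1.03, adjusted p = 3.6e-07), Otx2 (log2 fold change -6.00, SE 0.68, adjusted p = 9.7e-08) and Zic1 (log2 fold change -1.61, SE 0.20, adjusted p = 5.8e-07) were called lower in spinal cord. There 8 of 16 tested factors of midbrain and hindbrain were called lower, and 0 higher, compared with 2.37% of all genes called lower.

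No factor that patterns the dorsoventral axis and no cofactor of Hox proteins was called. Of 12 listed dorsoventral factors 10 were tested and 0 were called by edgeR or DESeq2, with 1 higher and 2 lower at an unadjusted p under 0.05 and a log2 fold change beyond 1. Pax3, a dorsal factor, was at 80.7, 35 and 44.2 CPM in Hox-high and 101, 139 and 54.4 CPM in Hox-low (adjusted p = 0.52, edgeR). Of the 9 cofactors of the Pbx, Meis and related families, 0 were called by either tool and 0 passed the unadjusted limit. All 9 had a negative log2 fold change, with a median of -0.44 (-0.37 with bounds) compared with -0.07 over all genes tested. Summed over the list, expression was 349, 370 and 515 CPM in Hox-high and 541, 553 and 464 CPM in Hox-low, with overlap. Meis1, a homeodomain cofactor, was at 47, 55.4 and 62.9 CPM in Hox-high and 91.5, 97.9 and 67.2 CPM in Hox-low (adjusted p = 0.66), and every Hox-high library was below every Hox-low library.

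A pair of genes of retinoic acid metabolism was chosen after the values were seen. Cyp26b1 (ENSMUSG00000063415, chromosome 6, 84571414 to 84593908, minus strand), whose enzyme degrades retinoic acid, was at 13.3, 17.5 and 14 CPM in Hox-high and 567, 542 and 619.7 CPM in Hox-low. The libraries of each group were close together and far from those of the other (log2 fold change -5.26, SE 0.47, adjusted p = 8.5e-15 from edgeR). Dhrs3, which encodes a reductase that turns retinaldehyde back into retinol, was at 29.6, 43.7 and 53.6 CPM in Hox-high and 102, 137 and 116 CPM in Hox-low (log2 fold change -1.51, SE 0.36, adjusted p = 0.0098), without overlap. The call of Cyp26b1 held with any 1 of the 6 libraries left out and that of Dhrs3 was lost in 3 of the 6 cases (up to adjusted p = 0.14). In C57BL/6J, Cyp26b1 was at 5.56, 3.07, 33.2, 1.27 and 3.81 CPM in spinal cord and 383, 619, 554, 556 and 522 CPM in hindbrain (log2 fold change -5.73, SE 0.48, adjusted p = 2.4e-10), and Dhrs3 was called lower as well (log2 fold change -2.20, SE 0.38, adjusted p = 0.0001). The level of Cyp26b1 in the hindbrain AG controls was 26.9 ± 8.09 CPM (SD, n = 5), below every C_HB_A library.

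The 22 listed identity genes summed to 54192, 54549.6 and 55822 CPM in Hox-high and 54699.9, 45954 and 52941 CPM in Hox-low, and the ranges overlapped. Slc1a3, the transporter whose surface form was used in the sort, was the single member called: it was at 572, 749 and 987 CPM in Hox-high and 1987, 1733 and 2087 CPM in Hox-low (log2 fold change -1.33, SE 0.19, adjusted p = 5.3e-07, edgeR). By the labels the groups differ both in the GLAST gate and in region, which cannot be told apart for this gene. In the authors' table both groups are named GLASTneg. The other main glutamate transporter of astrocytes, Slc1a2, was at 4622, 6058 and 5813 CPM in Hox-high and 5083, 3800.1 and 3974 CPM in Hox-low (log2 fold change 0.36, SE 0.19, adjusted p = 0.54), with overlap. The water channel gene Aqp4 was at 2327, 2733 and 2673 CPM in Hox-high and 2471, 2966 and 3169.8 CPM in Hox-low (log2 fold change -0.16, SE 0.20, adjusted p = 0.9), and Atp1b2, whose protein was the target of the sorting antibody, at 10158, 9426 and 8917 CPM in Hox-high and 7304, 6758 and 8143 CPM in Hox-low (log2 fold change 0.36, SE 0.18, adjusted p = 0.53), with every Hox-high library above every Hox-low library. Gfap, the intermediate filament of fibrous astrocytes, was at 71.5, 312 and 179 CPM in Hox-high and 112, 80.6 and 72.5 CPM in Hox-low with overlap, and was not called (adjusted p = 0.24). In C57BL/6J, Slc1a3 was at 219, 149.9, 216, 194 and 132 CPM in spinal cord and 1772, 1206, 1382, 1132 and 1299.7 CPM in hindbrain (log2 fold change -2.90, SE 0.19, adjusted p = 1.4e-12). In that comparison Sox9 and Acsl6 were called lower in spinal cord as well, and the sum of the list was 33685 to 43103 CPM against 43347 to 54981 CPM. In bulk libraries, fewer cells of a type and less RNA per cell cannot be told apart.

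Few genes of neurotransmitter sensing were called, all lower in Hox-high. Gria1, an AMPA receptor subunit, was at 77.7, 83 and 93.2 CPM in Hox-high and 183, 213 and 223 CPM in Hox-low (log2 fold change -1.29, SE 0.25, adjusted p = 0.00063). Gabbr2, a subunit of the GABA-B receptor, was at 31.7, 39.3 and 76.8 CPM in Hox-high and 146, 96.7 and 113 CPM in Hox-low (log2 fold change -1.32, SE 0.35, adjusted p = 0.032), and Cacng5, an auxiliary subunit of AMPA receptors, at 0, 4.37 and 6.99 CPM in Hox-high and 35, 8.06 and 34.1 CPM in Hox-low (log2 fold change -3.04, SE 0.66, adjusted p = 0.0029). The groups overlapped for none of them, and Gria1 was called with any 1 library left out while Gabbr2 was lost in 4 of the 6 cases and Cacng5 in 2. Of 22 listed genes for glutamate, GABA and glycine, 22 were tested, 2 were lower (1 by DESeq2) and 0 higher by edgeR, with 0.943% of all genes called lower, and 1 was higher at an unadjusted p under 0.05 (0 by DESeq2). Over this list 12 genes had a positive and 10 a negative log2 fold change, with a median of 0.04. Among 18 genes for ions and water, the channel genes Kcnk2 (12.3, 14.6 and 0 CPM in Hox-high and 53.1, 63.3 and 58.7 CPM in Hox-low) and Kcnn2 (132, 125 and 135 CPM in Hox-high and 329, 244 and 283 CPM in Hox-low) were called lower beside Cacng5, and DESeq2 called Kcnk2 of these 3. Kcnn2 lost its call whichever library was left out (up to adjusted p = 0.18) and Kcnk2 without Hox-high replicate 3 (0.057). In C57BL/6J, Gria1 (log2 fold change -1.65, SE 0.20, adjusted p = 2.2e-07), Gabbr2 (log2 fold change -3.24, SE 0.28, adjusted p = 7.7e-10), Cacng5 (log2 fold change -3.16, SE 0.22, adjusted p = 3.8e-12) and Kcnn2 (log2 fold change -1.38, SE 0.27, adjusted p = 0.00046) were called lower in spinal cord, and Kcnk2 was not (adjusted p = 0.17).

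**Figure D4:**
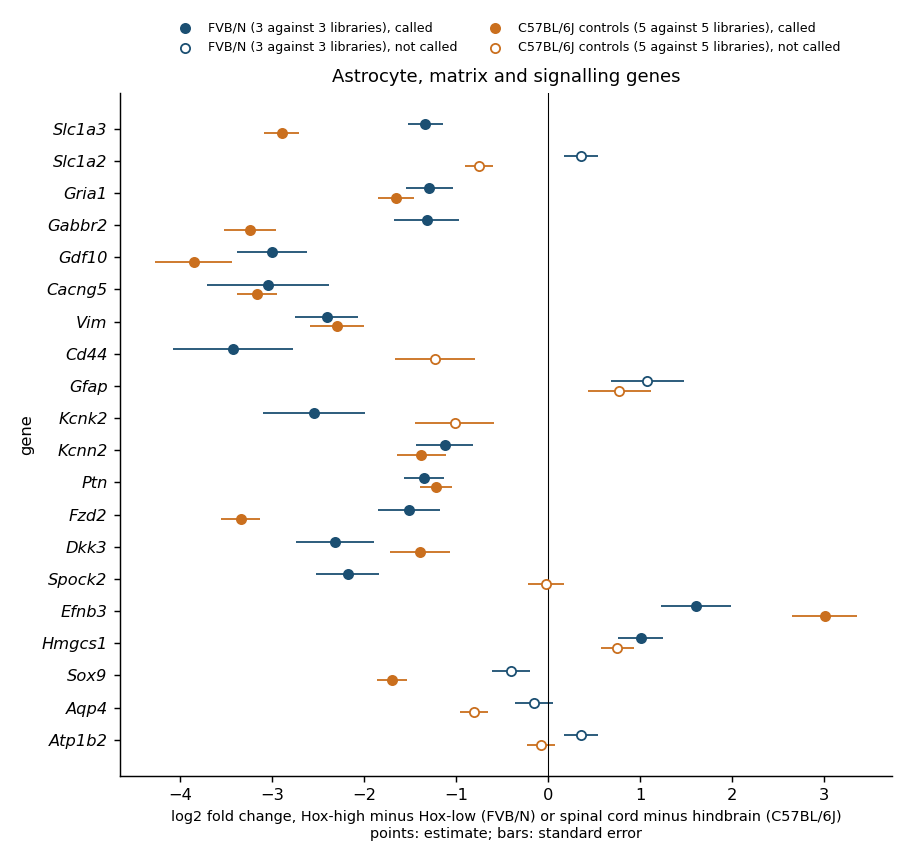
Log2 fold change with its standard error for 20 astrocyte, matrix and signalling genes in FVB/N (3 against 3 libraries) and in C57BL/6J controls (5 against 5), with filled points for called genes. Slc1a3, Gria1, Gdf10 and Vim lie left of 0 in both strains, and Spock2 is at -2.18 in FVB/N and -0.03 in C57BL/6J.

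Called genes of filaments and matrix were lower in Hox-high. Vim, an intermediate filament gene, was at 23.5, 40.8 and 48.9 CPM in Hox-high and 183, 152 and 247 CPM in Hox-low (log2 fold change -2.41, SE 0.34, adjusted p = 5.3e-07), and Cd44, a receptor for hyaluronan, at 8.18, 2.91 and 9.32 CPM in Hox-high and 40.7, 109 and 69.3 CPM in Hox-low (log2 fold change -3.43, SE 0.65, adjusted p = 0.00036). Spock2, a secreted proteoglycan, was at 45, 42.2 and 32.6 CPM in Hox-high and 166, 214 and 172 CPM in Hox-low (log2 fold change -2.18, SE 0.34, adjusted p = 7.4e-06). Each Hox-low library exceeded each Hox-high library, and the 3 calls held with any 1 library left out. With 0.943% of all genes called lower, Spock2 was the only called gene of 20 matrix genes tested, and Vim and Cd44 were the called genes of 18 listed filament genes, whose median log2 fold change was -1.57, or -0.56 with bounds. In C57BL/6J, Vim was lower in spinal cord (log2 fold change -2.30, SE 0.29, adjusted p = 7e-07), whereas Cd44 (adjusted p = 0.083) and Spock2 (log2 fold change -0.03, SE 0.20, adjusted p = 0.98) were not called.

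Of 28 listed morphogen and growth factor genes, 26 were tested, 5 were called lower, with 0.943% of all genes called lower, and 0 higher (DESeq2 also 5 and 0, and 2 were higher at an unadjusted p under 0.05). Gdf10, a ligand of the TGF-beta family, was at 0, 21.9 and 14 CPM in Hox-high and 92.7, 73.7 and 93.9 CPM in Hox-low (log2 fold change -3.00, SE 0.38, adjusted p = 2.1e-08). Ptn, which encodes the secreted factor pleiotrophin, was at 343, 377 and 564 CPM in Hox-high and 1101, 1185 and 969.5 CPM in Hox-low (log2 fold change -1.35, SE 0.21, adjusted p = 8.3e-06). The receptor gene Fzd2 (26.6, 45.2 and 48.9 CPM in Hox-high and 157, 93.2 and 85.3 CPM in Hox-low, log2 fold change -1.51, SE 0.34, adjusted p = 0.0039) and the secreted Wnt modulators Dkk3 (11.2, 5.83 and 9.32 CPM in Hox-high and 41.8, 39.1 and 54.4 CPM in Hox-low) and Sfrp1 (4.09, 2.91 and 9.32 CPM in Hox-high and 20.3, 15 and 32 CPM in Hox-low) completed the group. All 5 called genes were without overlap, which comes from the same values as their calls and adds no support. Gdf10, Ptn and Dkk3 were called with any 1 library left out, whereas Fzd2 lost its call in 2 of 6 cases and Sfrp1 in 3. In C57BL/6J, Gdf10 (log2 fold change -3.85, SE 0.42, adjusted p = 4.6e-08), Ptn (log2 fold change -1.22, SE 0.18, adjusted p = 6e-06), Fzd2 (log2 fold change -3.34, SE 0.21, adjusted p = 6.7e-13) and Dkk3 (log2 fold change -1.39, SE 0.33, adjusted p = 0.0037) were called lower in spinal cord, and Sfrp1 was not (adjusted p = 0.99). Of the guidance genes, the ephrin gene Efnb3 was higher in Hox-high (384, 205 and 203 CPM in Hox-high and 141, 55.3 and 64 CPM in Hox-low, log2 fold change 1.61, SE 0.38, adjusted p = 0.0082) and Efnb2 lower (0, 0 and 0 CPM in Hox-high and 2.26, 11.5 and 9.6 CPM in Hox-low, adjusted p = 0.028). With 1 library left out the call was lost in 3 of 6 cases for Efnb3 (up to 0.26) and in 5 of 6 for Efnb2 (up to 0.18), and DESeq2 called Efnb2 but not Efnb3. Both were called in the same direction in C57BL/6J.

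Among genes of sterol synthesis, Hmgcs1, which makes the precursor of mevalonate, was called higher in Hox-high (665, 755 and 685 CPM in Hox-high and 356, 433 and 259 CPM in Hox-low, log2 fold change 1.01, SE 0.24, adjusted p = 0.0088). It was the only one called higher of 19 tested genes, with a median log2 fold change of 0.45 over the list against -0.07 over all genes. No library overlapped between the groups, but the adjusted p rose to 0.21 without Hox-low replicate 3 and to 0.064 without Hox-high replicate 2. In C57BL/6J its log2 fold change was 0.75 (adjusted p = 0.0039), under the limit of 1.

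Myelin genes were the other list with several members higher in Hox-high. Cldn11 (ENSMUSG00000037625, chromosome 3, 31149920 to 31164324, plus strand), a tight junction gene of the myelin sheath, was at 857, 709 and 645 CPM in Hox-high and 267, 138 and 235 CPM in Hox-low (log2 fold change 1.79, SE 0.31, adjusted p = 6.2e-05), and Ugt8a, an enzyme that makes the myelin lipid galactosylceramide, at 361, 489 and 501 CPM in Hox-high and 171, 106 and 122 CPM in Hox-low (log2 fold change 1.76, SE 0.33, adjusted p = 0.00035). The groups did not overlap, and both genes were called with any 1 library left out. Of 14 listed oligodendrocyte genes 6 were called higher (among them Mag and Mal) by edgeR and 5 by DESeq2, and 0 lower by either tool (0 lower also at an unadjusted p under 0.05), compared with 0.421% of all genes called higher. Between 3 and 6 were called with 1 library left out, and the median log2 fold change was 1.41. Mag, a myelin adhesion protein, was at 1009.9, 591 and 517 CPM in Hox-high and 362, 189 and 253 CPM in Hox-low, and its call was lost in 3 of 6 cases with 1 library left out (up to adjusted p = 0.3). Mbp, a main protein of myelin, was at 583, 469 and 692 CPM in Hox-high and 568, 641 and 311 CPM in Hox-low, with overlap, and was not called (log2 fold change 0.19, SE 0.26, adjusted p = 0.9). The summed list was 16074, 15920.4 and 11548 CPM in Hox-high and 6817, 4882 and 4426 CPM in Hox-low. Apod, Gsn and Trf, chosen after their values were seen because their calls held with any 1 library left out, were higher too (log2 fold changes 1.85, 2.04 and 1.48), and all are known from oligodendrocytes.

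Of the markers of oligodendrocyte precursors, Olig1 was at 746, 450.1 and 345 CPM in Hox-high and 304, 221 and 224 CPM in Hox-low (log2 fold change 1.05, SE 0.29, adjusted p = 0.039), and Pdgfra, which defines these precursors, at 16.4, 4.37 and 6.99 CPM in Hox-high and 0, 2.3 and 5.33 CPM in Hox-low (log2 fold change 1.81, SE 1.85, adjusted p = 0.84). Olig1 was the single called gene of the 8 in the list, with 0.421% of all genes called higher, and its call was lost in 4 of 6 cases with 1 library left out (up to adjusted p = 0.54). Of 8 Schwann cell genes 4 were tested and 0 were called by edgeR or DESeq2, 1 was higher at an unadjusted p under 0.05, and Prx was at 0 in all 6 libraries. In C57BL/6J, all 14 oligodendrocyte genes and 7 of 8 precursor genes were called higher in spinal cord, with 3.80% of all genes called higher there and Cldn11 at 484, 797, 1555, 583 and 687 CPM in spinal cord and 257, 53.7, 101, 155 and 75.7 CPM in hindbrain. Summed oligodendrocyte markers were 15413 to 44392 CPM and 1575 to 5427 CPM. Whether myelin transcripts came from other cells in the sorted populations was not tested.

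Among the genes named for large differences, Penk, the precursor of enkephalins, was at 13.3, 184 and 93.2 CPM in Hox-high and 2.26, 3.45 and 0 CPM in Hox-low, a ratio of 46 (95% counting interval 19.4 to 143) (adjusted p = 0.00018, edgeR). Tac1, the precursor of substance P, was at 7.15, 51 and 48.9 CPM and at 0 in Hox-low, at least 10.7-fold higher (adjusted p = 0.011). Sst, encoding somatostatin and chosen after its values were seen, was at 1.02, 133 and 74.5 CPM in Hox-high and 1.13, 1.15 and 0 CPM in Hox-low (adjusted p = 0.001). The first Hox-high library was lowest for all 3 genes, and for Sst it lay within the Hox-low range. Without Hox-high replicate 2, Penk, Tac1 and Sst had adjusted p of 0.12, 0.13 and 0.21, the only case in which Penk and Sst lost their calls, whereas Tac1 lost its call in 5 of 6 cases. Nefm, a neurofilament gene, was at 47, 172 and 123 CPM in Hox-high and 10.2, 26.5 and 9.6 CPM in Hox-low (log2 fold change 2.87, SE 0.63, adjusted p = 0.0036) and was lowest among the Hox-high libraries in replicate 1, and its call was lost in 2 of 6 cases (up to 0.15). The 10 listed neuron genes summed to 135, 431 and 412 CPM in Hox-high and 61, 394 and 288 CPM in Hox-low, so that replicate 1 was lowest in both groups and the ranges overlapped, and the part of neuronal RNA in these 4 results was not tested. In C57BL/6J, Penk (log2 fold change 5.68, SE 0.68, adjusted p = 2.3e-07), Tac1 (log2 fold change 6.64, SE 0.96, adjusted p = 6e-06), Sst (log2 fold change 5.72, SE 0.65, adjusted p = 1e-07) and Nefm (log2 fold change 2.74, SE 0.34, adjusted p = 5.2e-07) were called higher in spinal cord.

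Other genes with large differences were higher in every Hox-high library, which for Hhip was a condition of the rule that picked it. Hhip (ENSMUSG00000064325, chromosome 8, 79965851 to 80058006, minus strand), whose protein binds and restrains Hedgehog ligands, was at 23.5, 40.8 and 44.2 CPM in Hox-high and had no count in Hox-low. It was at least 10.8-fold higher (adjusted p = 0.0012, edgeR), also with any 1 library left out. F11r, a junctional adhesion molecule (61.3, 84.5 and 107 CPM in Hox-high and 1.13, 9.21 and 2.13 CPM in Hox-low), and Adgrl2, a latrophilin receptor (28.6, 35 and 67.5 CPM in Hox-high and 1.13, 1.15 and 5.33 CPM in Hox-low), were chosen after their values were seen, and had adjusted p of 0.002 and 0.015. F11r passed in all cases but one (0.052 without Hox-low replicate 3) and Adgrl2 in 3 of 6. All were called in the same direction in C57BL/6J, where Hhip was at 27.6 to 75.4 CPM in spinal cord and 5 to 12.4 CPM in hindbrain (log2 fold change 2.67, SE 0.34, adjusted p = 6.1e-07), so that it was not at 0 in the hindbrain there.

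Genes of motile cilia, which ependymal cells carry, were lower in Hox-high. Of 7 listed ependymal genes, 7 were tested, 5 were called lower (Foxj1, Ccdc153, Tmem212, Sntn and Cfap126) by edgeR, 4 by DESeq2, and 0 higher by either tool (0 higher also at an unadjusted p under 0.05), with 0.943% of all genes called lower. The median log2 fold change was -3.00, or -2.57 with bounds, and 2 to 5 were called with 1 library left out. Foxj1, the master factor of motile cilia, was at 31.7, 10.2 and 21 CPM in Hox-high and 70.1, 85.2 and 192 CPM in Hox-low (log2 fold change -2.43, SE 0.51, adjusted p = 0.0018). Cdhr4, a cadherin-related gene with the largest fitted fold change among the genes called lower, had no count in Hox-high and was at 36.2, 71.4 and 179 CPM in Hox-low, at least 19.9-fold lower in Hox-high (adjusted p = 1.1e-06). In both genes Hox-low replicate 3 was highest and replicate 1 lowest. The genes named for the largest changes also included Krt15, Fbln7, Dsg2, Sntn, Dnah12, Fank1 and Cfap299, which were all at 0 in Hox-high and highest in Hox-low replicate 3, where they stood between 27.7 CPM (Cfap299) and 102 CPM (Krt15). Without that library the adjusted p was 0.19 for Foxj1 and Sntn and up to 0.47 for Dnah12, while Cdhr4, Ccdc153 and Tmem212 stayed called. With 1 library left out, Foxj1 lost its call in 2 of 6 cases and Sntn and Dnah12 in 5. Mcf2l, a guanine nucleotide exchange factor (14.7, 20.7 and 25.6 CPM, adjusted p = 0.013), was at 0 in Hox-high as well. The ependymal list summed to 75.6, 52.4 and 51.2 CPM in Hox-high and 251, 425 and 1009 CPM in Hox-low. In C57BL/6J its sums were 21.5 to 74.3 CPM and 27.3 to 39.9 CPM, with 5 genes tested and 0 called by edgeR or DESeq2 (1 higher at an unadjusted p under 0.05), and Cdhr4, Krt15 and Sntn had no count in the A controls of either region. Ttr, a transport protein made in large amounts by the choroid plexus and chosen after its values were seen, was at 20.4, 62.6 and 72.2 CPM in Hox-high and 800.1, 957 and 163 CPM in Hox-low (log2 fold change -3.69, SE 0.42, adjusted p = 5e-10) and was not called in C57BL/6J (adjusted p = 0.79).

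A pair of neuronal genes was also among the largest differences. Cbln3, used in cerebellar granule cells, had no count in Hox-high and was at 3.39, 33.4 and 41.6 CPM in Hox-low (adjusted p = 0.029, edgeR), and Slc17a7, a vesicular glutamate transporter, was at 0 and 6.78, 26.5 and 30.9 CPM (adjusted p = 0.03). Hox-low replicate 1 was lowest for both. Each lost its call in 5 of 6 cases with 1 library left out. The 6 genes of granule and Purkinje cells summed to 11.2, 16 and 21 CPM in Hox-high and 13.6, 140.4 and 130.1 CPM in Hox-low, with overlap through Hox-low replicate 1. Genes of other cell types were low in both groups: 12 myeloid genes summed to 36.8, 16 and 21 CPM in Hox-high and 65.5, 33.4 and 22.4 CPM in Hox-low, and 7 endothelial genes to 7.15, 2.91 and 4.66 CPM in Hox-high and 4.52, 21.9 and 9.6 CPM in Hox-low, with 0 of 11 and 0 of 5 tested genes called by edgeR or DESeq2 (1 and 0 lower at an unadjusted p under 0.05). Immediate early and stress genes, which respond to tissue dissociation, summed to 114, 77.2 and 95.5 CPM in Hox-high and 249.7, 267 and 265 CPM in Hox-low without overlap. Fos (2.04, 7.28 and 0 CPM in Hox-high and 38.4, 27.6 and 89.6 CPM in Hox-low, log2 fold change -3.92, SE 0.85, adjusted p = 0.0029) and Jun (59.3, 17.5 and 23.3 CPM in Hox-high and 84.8, 71.4 and 101 CPM in Hox-low, log2 fold change -1.30, SE 0.36, adjusted p = 0.045) were called lower, whereas Jun was called higher in spinal cord in C57BL/6J (log2 fold change 1.16, SE 0.25, adjusted p = 0.0019). Fos lost its call without Hox-low replicate 3 (adjusted p = 0.16) and Jun in 5 of 6 cases (up to 0.39). The part of these cell types and of handling in the genes lower in Hox-high was not tested.

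**Figure D5:**
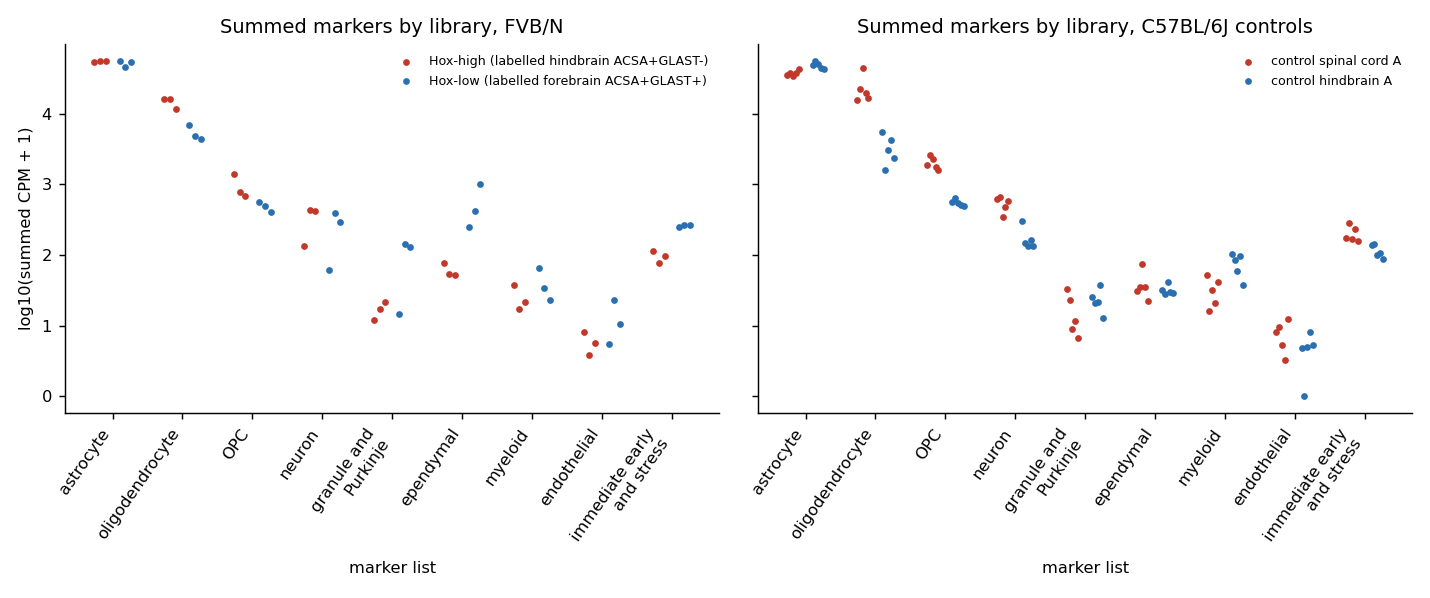
Summed CPM of marker lists, as log10(summed CPM + 1) with a point per library, in FVB/N (left) and C57BL/6J controls (right). Oligodendrocyte sums were 11548 to 16074 CPM in Hox-high and 4426 to 6817 CPM in Hox-low, and ependymal sums were 51.2 to 75.6 CPM and 251 to 1009 CPM, whereas the ependymal sums of the C57BL/6J groups overlap.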

How the data were processed

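The deposited gene counts were used as the authors made them: per the labels and the study's methods, reads of 3′ end libraries were aligned to GRCm38 with HISAT 0.1.5 and counted per gene with HTSeq 0.6.1p1. Whether counting used strand is not given in the sources used here. Groups followed the sample labels, and the supplementary table was used only to show how its columns are named. In the FVB/N libraries compared, totals were 416768 to 954533 counts, and in the C57BL/6J spinal cord A and hindbrain A controls 1554784 to 3705375.

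Genes with at least 10 counts in total were fitted with edgeR 4.0.16 in R 4.3.3 (TMM scaling, quasi-likelihood test, Benjamini-Hochberg adjustment), over the 15 isolated FVB/N libraries and, separately, over the 15 C57BL/6J controls, so that groups not compared added to the estimate of spread. DESeq2 1.42.0, other filters and scalings, a replicate block and leaving out each library were alternatives. In data simulated on the FVB/N libraries, 51% of 200 genes changed by 2 on the log2 scale were recovered and 2.86% of calls were false (14391 genes). In data simulated on the C57BL/6J controls the values were 73.5% and 4.55% (17190 genes). In both simulations the changed genes were drawn from those with at least 10 counts per library on average. All other genes had the same mean in every group, and libraries were drawn independently. Genes absent from 1 group were not among the changed ones, so these shares do not carry over to the calls reported here. Intervals are 95% counting intervals.

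The genes named were the 12 called in each direction with the largest log2 fold change, a mean of at least 5 CPM in the higher group and no overlap between groups, together with called genes of the lists and the genes said to be chosen after their values were seen. The compared groups and the gene lists were chosen with earlier results of these data known. Gene coordinates are those of GENCODE M21, and promoters are from RefSeq (GRCm38.p6). Results for some genes are not reported here.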

Additional observations from a re-analysis of the deposited data

Results flagged for a closer look

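In groups of 5 C57BL/6J controls, a single library stood apart from the other 4 for 7 of 61 gene and group combinations tested, by a gap to the nearest library that exceeded Dixon's 95% critical value; chance alone gives about 1 in 20. Spinal cord A replicate 3 was such a library for Hoxa9 (21.67 CPM), Otx2 (6.358 CPM), Cyp26b1 (33.23 CPM) and Efnb3 (1143 CPM). The others were Hoxc6 in spinal cord A replicate 5 (150.6 CPM), Hoxa10 in spinal cord A replicate 2 (37.23 CPM) and Nefm in hindbrain A replicate 4 (32.4 CPM).

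Of the 5 genes called lower in FVB/N and higher in C57BL/6J, a pair had no overlap between the compared groups in either strain. Cald1, which encodes an actin-binding protein, had a log2 fold change of -1.572 in FVB/N and 1.059 in C57BL/6J. Pcp4l1, a relative of a Purkinje cell peptide, had -2.525 in FVB/N and 2.926 in C57BL/6J. The difference between the strains was not tested.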

How the results depend on the processing

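No result changed direction under the alternatives run. In FVB/N, where 204 genes were called (63 higher, 141 lower), a fit of the 6 compared libraries alone called 312 (132 higher), filterByExpr left 103 (34 and 69), and the DESeq2 test against a log2 fold change of 1 left 12 (7 and 5). Leaving out 1 library gave 67 to 175 genes (24 to 50 higher, 43 to 125 lower), with the smallest count without Hox-low replicate 3. In C57BL/6J, where 1119 genes were called (689 and 430), the DESeq2 test against a log2 fold change of 1 left 231 (156 and 75), and leaving out 1 library gave 904 to 1119 (519 to 676 higher, 385 to 455 lower). A comparison with the hindbrain AG controls, chosen after seeing the data, called 3223 (2116 and 1107). Genes called higher in both strains (51) numbered 101 with the 6 libraries alone, 25 with filterByExpr and 7 with DESeq2 against a log2 fold change of 1 in FVB/N, and 26 and 31 without Hox-high replicates 1 and 2, 40 without Hox-low replicate 1, 21 and 20 without Hox-low replicates 2 and 3, and 49 to 51 without 1 C57BL/6J library. Genes called lower in both (49) numbered 27 with filterByExpr, 2 or 27 with that DESeq2 test in FVB/N or C57BL/6J, and 22 without Hox-high replicate 1, 31 and 22 without Hox-low replicates 2 and 3, and 48 to 55 without 1 C57BL/6J library. The causes were not tested. The DESeq2 Wald test called 187 genes in FVB/N and shared 47 of the 63 and 107 of the 141.

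With the replicate number as a block, 226 genes were called in FVB/N and 1247 in C57BL/6J. Deviations of same-numbered libraries correlated by 0.016 to 0.041 in FVB/N and -0.05 to 0.049 in C57BL/6J. Only libraries of the same replicate number were paired in this check. Some sample numbers in the titles occur in both C57BL/6J groups under different replicate numbers, and such pairs were not tested. In FVB/N, the Y-linked gene Ddx3y had no count in Hox-high replicate 2 and was far above the floor in Hox-low replicate 2. These libraries thus did not hold the same set of mice. Whether other libraries of both regions came from the same animals, or pools shared an animal, was not settled. Depth was lowest in Hox-high replicate 3 (416768 counts), where 3 counts are 7.2 CPM.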
